A study of Mus musculus with 18 samples.

Results

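The Rab genes described here are the 56 genes on a mouse expression array whose symbol is Rab followed directly by a digit, out of 12393 genes that have a probe set assigned to 1 gene symbol. They were chosen by symbol, and each gene was read from the probe set with the highest mean log2 signal among its probe sets, of which the 56 genes have 105. Of the 56 genes, 50 encode Rab GTPases. The other 6 carry the name of a Rab that they bind, regulate or lie beside: Rab3gap2, Rab3il1, Rab3ip, Rab5if, Rab11fip5 and Rab26os.

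The study asked which cellular pathways in spinal motor neurons change over the course of disease in the SOD1 G93A mouse, a model of familial amyotrophic lateral sclerosis that carries a transgene for a mutant human superoxide dismutase. The transgene is present throughout the body, so the captured neurons and the cells around them carry it alike. For each animal, 1000 motor neurons were cut by laser out of toluidine-blue-stained frozen sections of lumbar cord, 10 µm thick, and their RNA was hybridised to 1 array. The 6 groups held 3 animals each: G93A transgenic mice and their non-transgenic littermates, called controls here, at 60, 90 and 120 days of age. Captured cells were chosen by position and shape, and a lower signal can mean less RNA per cell or fewer of the cells that hold it, which cannot be told apart here.

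Rab proteins are small GTPases that mark the membranes of a cell and direct traffic between them. A Rab is switched on by an exchange factor that loads GTP, recruits effectors such as motor adaptors, tethers and fusion factors, and is switched off by a GTPase activating protein, after which GDP dissociation inhibitor lifts it off the membrane. In motor neurons, whose synapses lie far from the cell body, Rab3 proteins sit on synaptic vesicles, Rab5 proteins on early endosomes, Rab7 on the late endosomes and signalling endosomes that travel back to the cell body, Rab11 proteins on recycling endosomes, and Rab1, Rab2 and Rab6 proteins at the endoplasmic reticulum and Golgi.

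Signals are the authors' MAS5 values on a linear scale, in arbitrary units, scaled so that the trimmed mean of every array is 100. Differences are on the log2 scale with their standard error, from a limma fit to all 18 arrays, and "changed", "rose" and "fell" are used for an adjusted p under 0.05. Each array's correlation with another of its group lay between 0.641 and 0.838, and with an array of another group between 0.539 and 0.864, so the groups do not separate cleanly over all genes. The arrays also differed in technical signals. Hybridisation controls (18 probe sets) had a mean log2 level of 9.47 in G93A mice and 11.1 in controls at 60 days. At 90 days it was 9.09 in G93A mice and 9.83 in controls, and at 120 days 11.6 in both. For Gapdh, the 3′ probe set exceeded the 5′ probe set by 4.14 (log2) in G93A mice and 3.36 in controls at 60 days, by 4.39 and 3.25 at 90 days, and by 4.94 and 4.47 at 120 days. Of 12 motor neuron markers 11 were on the array, of which Slc18a3, the vesicular acetylcholine transporter, was above the array median on no array. Markers of other cells were present as well, and the summed signal of the 13 microglial markers on the array was 11950 to 21190 in G93A mice and 4335 to 7144 in controls at 120 days. With genotype at single ages, 1 of the 63 tested markers of 7 lists was called, the microglial Tyrobp at 60 days. From 60 to 120 days the calls were 3 microglial markers and the astrocyte marker Gfap, all higher, in G93A mice. In controls they were 2 microglial, 2 oligodendrocyte, 1 neuronal and 1 interneuron marker higher and 3 microglial markers lower, and 0 of 9 motor neuron markers. The summed signal of the 11 motor neuron markers, most of it Nefl, was 7850 to 19460 in G93A mice and 19080 to 29010 in controls at 60 days. It was 14540 to 16770 and 13510 to 30640 at 90 days, and 8911 to 16530 and 14630 to 29290 at 120 days. These ranges overlapped at each age. The part of these differences in the results on Rab genes was not tested, except where a value is given.

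Rab14, Rab1a, Rab7 and Rab40c were the members whose calls over the 6 groups, given below, held whichever single array was left out. The 250 bases in front of the first annotated start of each are shown because the results turn on these genes. The sequences are from RefSeq on the build GRCm38.p6, run 5′ to 3′ on the gene's own strand, and have the motif GGGCGG or its reverse complement in capitals.
Rab14, chr2:35201121-35201370, minus strand: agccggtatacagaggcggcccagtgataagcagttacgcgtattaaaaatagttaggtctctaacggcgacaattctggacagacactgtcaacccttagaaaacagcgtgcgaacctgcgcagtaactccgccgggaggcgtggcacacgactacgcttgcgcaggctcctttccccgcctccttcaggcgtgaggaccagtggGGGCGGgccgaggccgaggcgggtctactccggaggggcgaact
Rab1a, chr11:20201162-20201411, plus strand: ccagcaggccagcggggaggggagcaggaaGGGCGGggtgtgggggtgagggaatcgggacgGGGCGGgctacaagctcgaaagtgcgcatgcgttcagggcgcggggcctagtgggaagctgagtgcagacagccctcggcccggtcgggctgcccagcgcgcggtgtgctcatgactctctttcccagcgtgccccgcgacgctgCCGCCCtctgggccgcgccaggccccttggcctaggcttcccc
Rab7, chr6:88045271-88045520, minus strand: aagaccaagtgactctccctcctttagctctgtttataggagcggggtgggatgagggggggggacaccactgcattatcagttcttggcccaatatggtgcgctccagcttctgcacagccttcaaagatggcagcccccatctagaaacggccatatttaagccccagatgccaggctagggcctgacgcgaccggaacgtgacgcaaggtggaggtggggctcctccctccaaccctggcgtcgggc
Rab40c, chr17:25919715-25919964, minus strand: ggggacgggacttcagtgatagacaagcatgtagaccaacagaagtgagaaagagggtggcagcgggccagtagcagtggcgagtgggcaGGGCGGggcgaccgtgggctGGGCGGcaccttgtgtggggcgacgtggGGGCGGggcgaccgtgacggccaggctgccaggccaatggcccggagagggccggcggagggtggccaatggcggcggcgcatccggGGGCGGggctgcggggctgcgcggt
GGGCGG, known as the GC box, was found once in the Rab14 window, 3 times in that of Rab1a, 4 times in that of Rab40c and 0 times in that of Rab7. Rab7 has 2 listed starts, and the window is that of the first. Of the 56 members 48 have a listed promoter, and 34 of these (70.8%) hold the motif on either strand, against 32.9% of the 27025 listed mouse promoters. Every gene was read at its first listed start, and the shares were not matched for base composition or expression level. Windows with CACGTG, the core of the lysosomal CLEAR element, were 6 of 48 (12.5%) among members and 6.05% of all. TGACGTCA, the full cAMP response element, lay in 2 of 48 (4.17%) and in 1.62% of all. None of the 4 printed windows holds CACGTG or TGACGTCA, and Rab5a was a member with both.

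Taken over the 6 groups, 10 of the 50 tested members (20%) differed by an F test of any difference among the groups, against 9.52% of all 10020 genes tested by their brightest probe set. These were Rab14, Rab40c, Rab1a, Rab7, Rab11a, Rab10, Rab5if, Rab34, Rab33b and Rab5a, in order of their adjusted p. The calls of Rab14, Rab40c, Rab1a and Rab7 were kept whichever of the 18 arrays was left out. The other 6 lost theirs without at least 2 arrays, and Rab5a lost its call without any of 12 arrays, with adjusted p of 0.0522 to 0.0952 then. With the level of the hybridisation controls as a covariate, 2 members were called, Rab14 and Rab7. Of the 16565 tested probe sets of the array, 639 were called then, in place of 1482. Without a trend in limma's moderation only Rab40c was called, with Rab14, Rab1a and Rab7 at adjusted p of 0.053, 0.0906 and 0.111. Over all tested probe sets 364 were called without a trend. The members' larger share in the main fit is therefore not read as a trait of the family. The Gapdh ratio as a covariate took the calls of Rab7, Rab33b and Rab34 (adjusted p = 0.0859, 0.062 and 0.354). Averaging the probe sets of each gene took those of Rab14, Rab7 and Rab40c (adjusted p = 0.739, 0.597 and 0.316). It also took those of Rab10, Rab11a and Rab34 (0.771, 0.257 and 0.0713). Rab5a, Rab5if and Rab33b, which have 1 probe set each, no longer passed in that fit either (0.0683, 0.0542 and 0.052). Only Rab1a kept its call.

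The genotypes differed in few members at any age. At 60 days 1 of the 50 tested members changed, with Rab14 higher in G93A mice, against 0.659% of all tested genes, 0.629% higher and 0.0299% lower. At 90 days 0 of 50 passed, as did 0% of all tested genes, and 6 members (12%) had an unadjusted p under 0.05 in limma, beside 4.73% of all tested genes. At 120 days 0 of 50 passed, against 0.0299% of all tested genes, and 8 members (16%) had an unadjusted p under 0.05, beside 11.9%. For the mean difference over the 3 ages 0 of 50 passed, against 0.02% of all tested genes, and 10 members (20%) had an unadjusted p under 0.05, beside 8.08%. The genotype difference itself varied with age in 1 of 50 members, again Rab14, against 0.399% of all tested genes.

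Arrays of the 2 genotypes did not overlap at 60 days in 9 members that were higher in G93A mice and 7 that were lower, of 56, while among all genes such separation upward was seen in 7.15% and downward in 11.3%. At 90 days there were 4 higher and 6 lower members, beside 5.23% and 6.01% of all genes. At 120 days there were 3 higher and 4 lower, beside 9.67% and 5.87%. Members had a median log2 difference of -0.16 at 60 days, where that of all genes was -0.14. The pair of medians was 0.03 and -0.04 at 90 days, and -0.10 and 0.12 at 120 days. Rab5a, Rab14, Rab7 and Rab1a were among the 9 at 60 days, and Rab14, Rab7 and Rab1a were also among the 4 that were lower in G93A mice at 120 days. Counting Rab40c and Rab24, 5 of 56 members separated in opposite directions at different ages, beside 3.98% of all genes.

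From 60 to 120 days, 7 of 50 tested members changed in controls (14%), against 7.03% of all tested genes, 4.12% higher and 2.9% lower. Rab14, Rab7, Rab31 and Rab6b rose, and Rab12, Rab8a and Rab3il1 fell. In G93A mice 1 of 50 changed over the same ages, Rab40c, which rose, against 2.26% of all tested genes, 1.13% higher and 1.13% lower. With the Gapdh ratio as a covariate the counts turned to 3 in G93A mice (Rab1a, Rab40c and Rab4b) and 1 in controls (Rab14), and without a trend in the moderation they were 0 and 2. Over all probe sets the Gapdh ratio turned 331 calls into 208 in G93A mice and 1112 into 143 in controls. The array-wide counts without a trend are given below. From 60 to 90 days Rab14 rose in controls as 1 of 50, against 1.51% of all tested genes, 1.29% higher and 0.22% lower. Over those ages 0 of 50 changed in G93A mice, where 0% of all tested genes did and 4 members (8%) had an unadjusted p under 0.05 in limma, beside 5.05%. Of 56 members, 8 lay higher and 10 lower without overlap at 120 than at 60 days in controls, beside 8.26% and 17.7% of all genes, and in G93A mice 5 and 8 did, beside 10.8% and 10.2%. For 90 against 60 days these counts were 10 and 5 in controls, beside 7.31% and 10.6%, and 4 and 4 in G93A mice, beside 5.87% and 6.93%.

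The controls' median difference over these ages was 0.24 for the members and -0.31 for all genes. Centring each array on its median moved the latter to 0.19, and the members' median was then 0.74. After that centring 10 members were called in controls, 9 higher and 1 lower, in place of 4 higher and 3 lower, and over all probe sets the split became 1416 higher and 154 lower, in place of 641 and 471. Before centring, the 20 members above the array median on all arrays had a median of 0.37, with 16 above 0. The other 36 had a median of -0.55, with 17 above 0. Array medians were 37 to 47.8 in controls at 120 days and 58 to 64 at 60 days. The part of brightness and scaling in the members' median was not tested. Summed oligodendrocyte markers, 10 on the array, were 23970 to 42050 in controls at 120 days and 13350 to 14620 at 60 days, with 2 of 10 called higher, and their part in these changes was not tested.

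**Figure D1:**
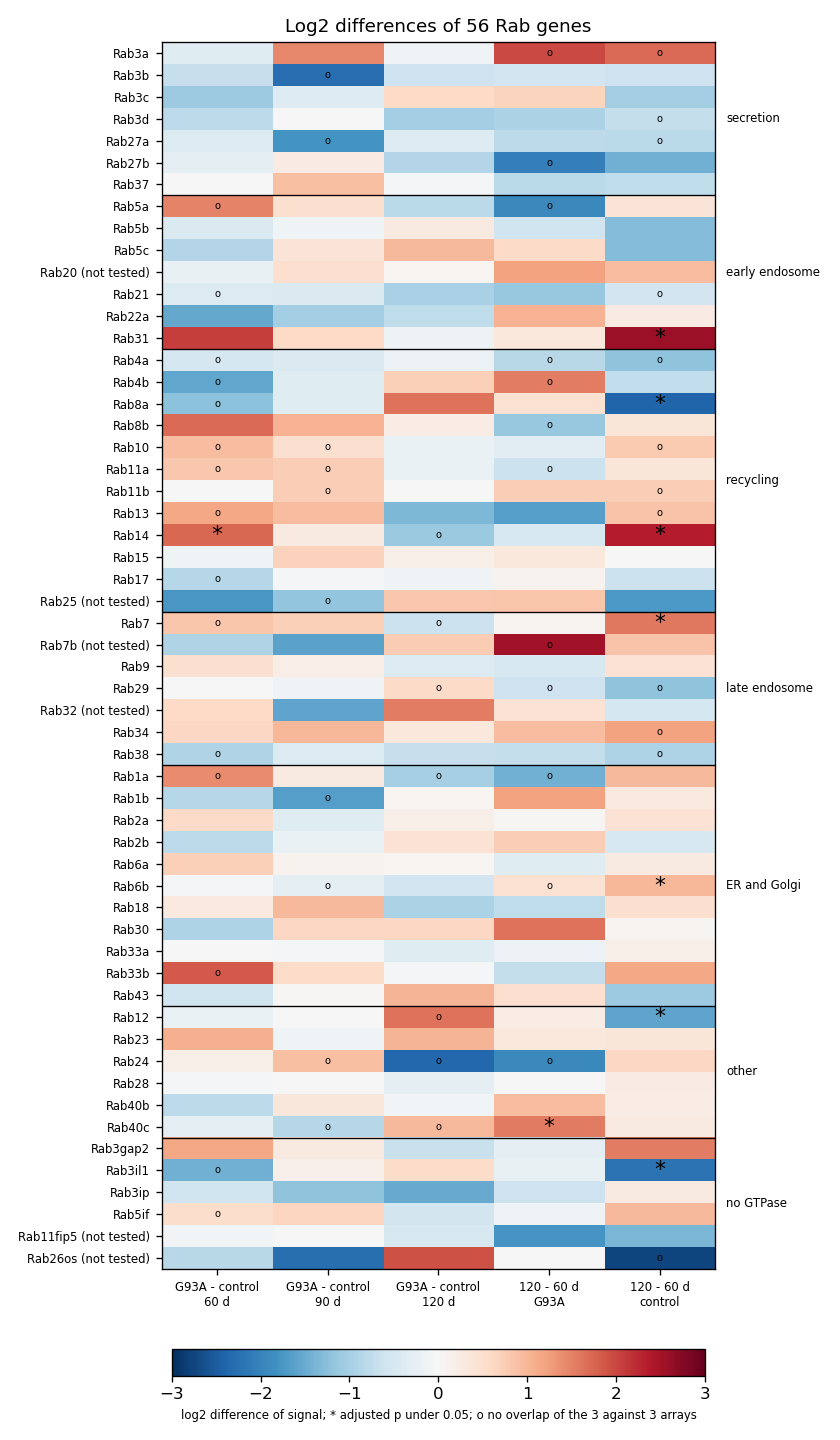
Log2 differences of the 56 Rab genes (rows, grouped by the compartment each is best known for) in 5 comparisons (columns), G93A minus control at 60, 90 and 120 days and 120 minus 60 days within each genotype. Red is higher and blue lower in the group named first. A star marks an adjusted p under 0.05 and a circle the 3 against 3 arrays that do not overlap; stars stand on 1 gene at 60 days, on 1 in G93A mice with age and on 7 in controls with age.

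Among the 12 Rab genes of recycling endosomes and delivery to the plasma membrane, Rab14 carried the clearest pattern. Rab14 acts between the Golgi and early and recycling endosomes. At 60 days its signal was 1323, 802 and 493 in G93A mice, against 378, 215 and 177 in controls. All G93A arrays lay above all control arrays, by 1.73 ± 0.35 on the log2 scale or 3.31-fold (adjusted p = 0.0227). At 90 days the signals were 815, 1080.1 and 877 in G93A mice and 641, 1123 and 611 in controls. These overlapped, and the difference was 0.27 ± 0.35 (adjusted p = 0.997). At 120 days the values were 484, 684 and 568 in G93A mice, against 1657, 1193 and 971 in controls. Here every G93A array lay below every control array, the difference being -1.12 ± 0.35 (adjusted p = 0.205).

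The test of genotype by age, which asks whether the genotype difference varied with age and not whether it changed sign, passed for Rab14 (adjusted p = 0.0213). In controls Rab14 rose by 2.35 ± 0.35 from 60 to 120 days, 5.11-fold (adjusted p = 0.000339), and by 1.65 ± 0.35 from 60 to 90 days (adjusted p = 0.021). In G93A mice the difference between 120 and 60 days was -0.49 ± 0.35 (adjusted p = 0.522), with overlapping arrays. The 3 control arrays of 60 days held the lowest signals of this gene, and they enter both the genotype comparison at 60 days and the age comparisons in controls.

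The genotype call for Rab14 at 60 days was lost without G93A array 1 or 2 or control array 2 or 3 of that age, with adjusted p of 0.0565 to 0.183 in limma. With the hybridisation controls as a covariate the difference was 0.98 (adjusted p = 0.567), and with the Gapdh ratio as a covariate 1.45 (adjusted p = 0.200). The test of genotype by age was lost without G93A array 1 or 2 or control array 3 of 60 days, or array 1 of either genotype at 120 days (0.0545 to 0.0833). The 90-day rise in controls was lost without control array 2 or 3 of 60 days or 1 or 2 of 90 days (0.0539 to 0.115), and with the hybridisation controls as a covariate it was 1.05 (adjusted p = 0.184). The rise to 120 days held without any 1 array. Among the 11 microglial markers tested, Tyrobp was called higher in G93A mice at 60 days, while the list's summed signal was 2674 to 3556 in G93A mice and 2387 to 4884 in controls, and the part of such cells in Rab14 was not tested.

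Rab14 is read by 6 probe sets, and they did not move together. The brightest is 1419246_s_at, whose suffix marks probes that match several transcripts, possibly of another gene. In controls from 60 to 120 days the tested probe set 1419244_a_at rose by 2.69 on the log2 scale (adjusted p = 0.00848), 1415686_at differed by 1.03, and 1419243_at by -0.92. At 60 days the G93A minus control differences of the same 3 were 1.51, 1.02 and -0.29, none of which passed. Averaging the probe sets gave 0.78 at 60 days (adjusted p = 0.578) and 0.72 for the age change in controls (adjusted p = 0.410).

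**Figure D2:**
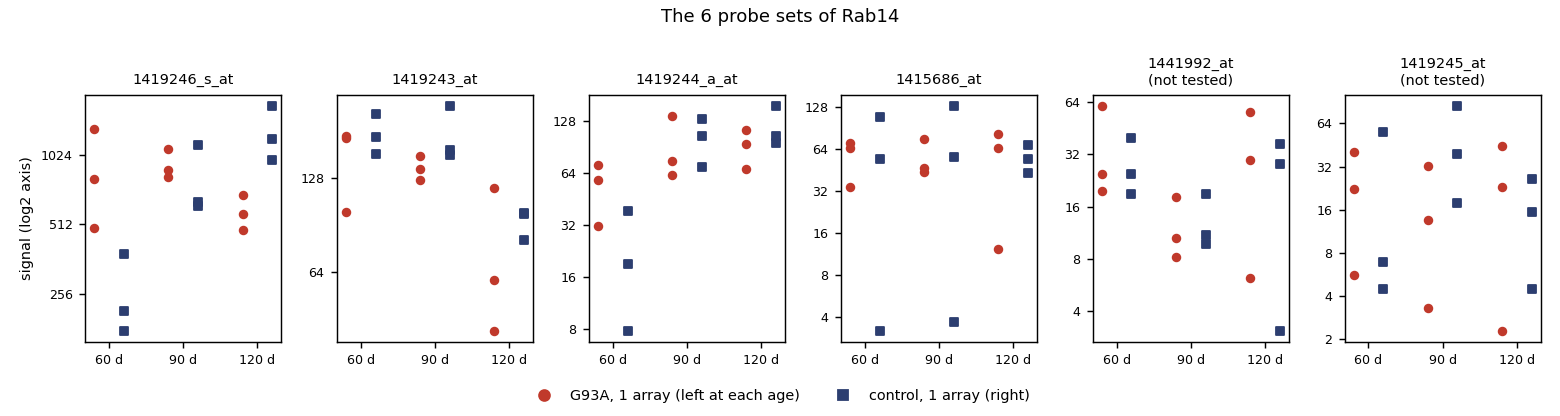
Signals (log2 axis, arbitrary units) of the 6 probe sets of Rab14 at 60, 90 and 120 days, 1 point per array, with G93A arrays as circles on the left and control arrays as squares on the right of each age. The low 60-day controls stand out in 1419246_s_at and 1419244_a_at but not in 1419243_at.

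Rab11a, the recycling endosome Rab that also moves cargo into axons and dendrites, had signals of 232, 157 and 147 in G93A mice at 60 days, against 86.6, 90.5 and 127 in controls. At 90 days they were 555, 282 and 329 in G93A mice and 243, 245 and 189 in controls. G93A arrays lay above control arrays at both ages, by 0.81 ± 0.43 and 0.73 ± 0.43, and neither difference passed (adjusted p = 0.45 and 0.997). At 120 days the signals were 89.8, 145 and 110.1 in G93A mice and 255, 59.3 and 141 in controls, and overlapped. Within G93A mice, 90 days lay above 60 days by 1.09 ± 0.43 without overlap (adjusted p = 0.839). The call over the 6 groups was lost without G93A array 1 or 3 of 90 days (0.0715 to 0.127), and those arrays hold the highest Rab11a signals of the series. Averaging the gene's 2 probe sets also took that call (adjusted p = 0.257).

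Rab10 directs exocytic vesicles to the plasma membrane, including those that extend axons. It was at 381, 237 and 215 in G93A mice and 186, 144 and 107 in controls at 60 days, and at 419, 449 and 382 in G93A mice and 332, 351 and 228 in controls at 90 days. The G93A arrays were the higher ones at both ages without overlap, by 0.92 ± 0.32 (adjusted p = 0.189) and 0.48 ± 0.32 (adjusted p = 0.997). Signals at 120 days were 221, 228 and 200.3 in G93A mice and 241, 209 and 295 in controls, with overlap. Controls at 90 days stood above controls at 60 days by 1.07 ± 0.32 (adjusted p = 0.0922). Without control array 2 or 3 of 60 days or any G93A array of 90 days the 6-group call of Rab10 was lost (0.0649 to 0.0984). It was also lost when the gene's 3 probe sets were averaged (adjusted p = 0.771).

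Rab4b, of the fast recycling route, moved the other way at 60 days. Its signals were 76.2, 102 and 59.6 in G93A mice, against 262, 291 and 155 in controls. The G93A arrays were lower without overlap, by -1.56 ± 0.44, which did not pass (adjusted p = 0.104). At 120 days Rab4b was at 336, 193 and 176 in G93A mice and 126, 182 and 113 in controls, which overlapped. The 120-day G93A arrays lay above the 60-day ones by 1.54 ± 0.44 (adjusted p = 0.064).

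Rab8a carries vesicles from the Golgi to the plasma membrane and the cilium. In controls it fell to 46.6, 7.3 and 113 at 120 days, against 167, 176 and 198 at 60 days. That is a difference of -2.41 ± 0.70, or 5.32-fold lower (adjusted p = 0.0392), with control array 2 far below the other 120-day arrays. Without that array the difference was -1.31 (adjusted p = 0.197). The call was lost without any of the 3 control arrays of 60 days or without control array 1 or 2 of 120 days (0.0604 to 0.197), and also after centring on the median (adjusted p = 0.0914). G93A signals were 121, 109.9 and 86.5 at 120 days and 87.7, 59.5 and 85.2 at 60 days, which overlapped.

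The remaining 7 genes of this route were Rab4a, Rab8b, Rab11b, Rab13, Rab15, Rab17 and Rab25. Rab4a, read by an _s_at probe set, was lower without overlap at 120 than at 60 days in G93A mice (-0.84 ± 0.40, adjusted p = 0.299) and in controls (-1.21 ± 0.40, adjusted p = 0.0668). Rab11b, the neuronal relative of Rab11a, was higher in G93A mice at 90 days by 0.74 ± 0.36 (adjusted p = 0.997). Rab13, Rab15 and Rab17 passed no test, and Rab25, an epithelial member, was too dim to be tested.

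**Figure D3:**
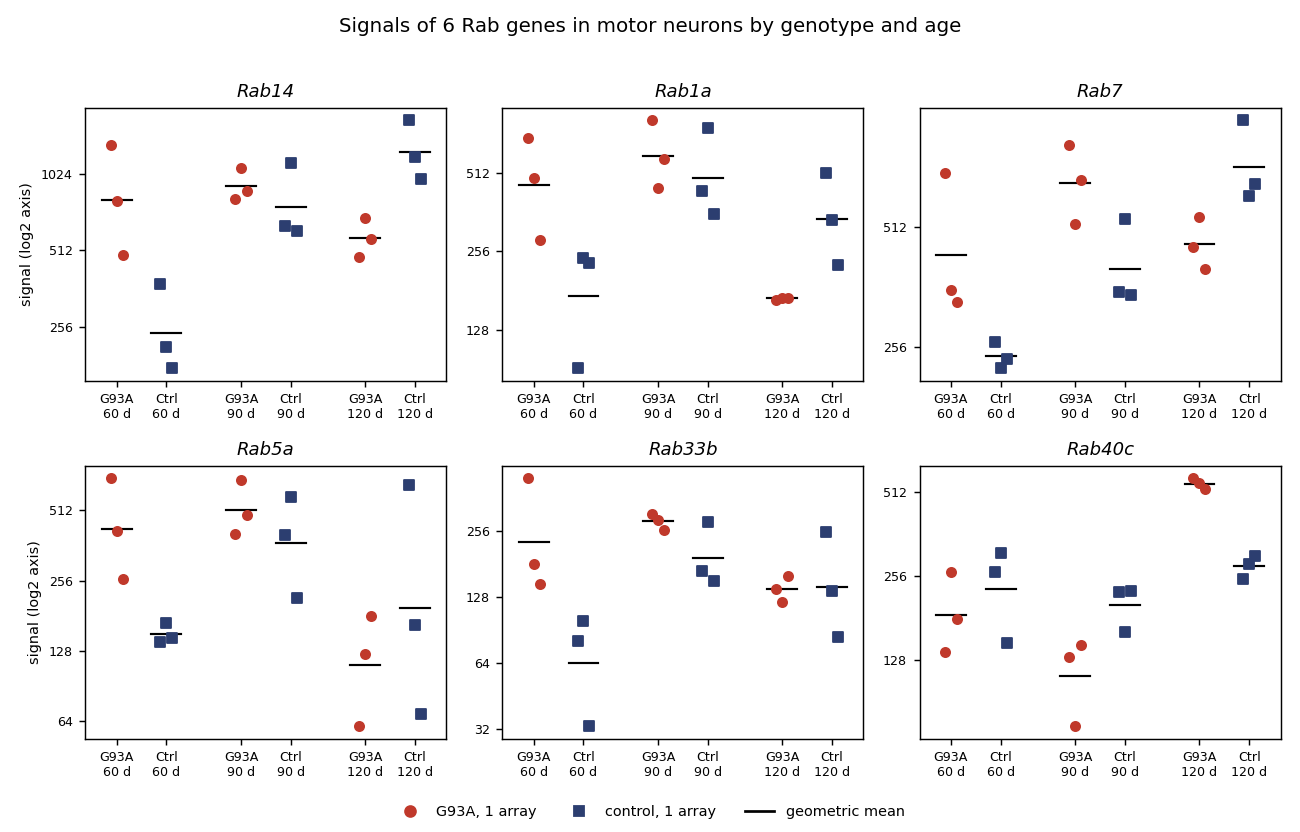
Signals (log2 axis, arbitrary units) of Rab14, Rab1a, Rab7, Rab5a, Rab33b and Rab40c on each of the 18 arrays, with G93A arrays as circles, control arrays as squares and the geometric mean of each group of 3 as a line. In Rab14, Rab1a and Rab7 the G93A arrays lie above the controls at 60 days and below them at 120 days without overlap, and in Rab40c the 3 G93A arrays of 120 days are the highest of the series.

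Of the 7 early endosome members, Rab5a and Rab31 showed the widest differences. Rab5a drives fusion of early endosomes and the entry of internalised receptors. Its signals at 60 days were 705, 419 and 260.3 in G93A mice, against 139, 169 and 146 in controls. The groups did not overlap, and the difference of 1.49 ± 0.57 did not pass (adjusted p = 0.242). At 90 days it was at 407, 694 and 488 in G93A mice and 401, 585 and 216 in controls, and at 120 days at 60.9, 124 and 181 in G93A mice and 660.3, 166 and 68.9 in controls. Both pairs overlapped, and the 120-day controls spread over almost the whole range of the gene. Within G93A mice, 120 days lay below 60 days without overlap, by -1.94 ± 0.57 (adjusted p = 0.0735).

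Rab31, also called Rab22b, links the trans-Golgi network and endosomes. It rose in controls to 97, 253 and 219 at 120 days, against 136, 23.8 and 8.2 at 60 days. The difference was 2.56 ± 0.68 (adjusted p = 0.0258), although control array 1 of 60 days overlapped the older controls. G93A signals were 144, 272 and 100.2 at 120 days and 232, 95.8 and 90.8 at 60 days, with overlap. The control call was lost without control array 2 or 3 of either age (0.0675 to 0.144), with a difference of 1.63 without array 3 of 60 days, and the gene's second probe set differed by -1.04 over the same ages. The mean of both probe sets was 0.76 (adjusted p = 0.339). Rab5b, Rab5c, Rab21 and Rab22a passed no test, and Rab20 was not tested.

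Rab7, the Rab of late endosomes, lysosomes and long-range retrograde transport, was the clearest of the 7 late endosome members. At 60 days its signals were 694, 356 and 331 in G93A mice, against 264, 227 and 239.9 in controls. At 90 days they were 817, 519.6 and 669.6 in G93A mice and 351, 534 and 346 in controls, and at 120 days 455, 542 and 400.2 in G93A mice and 943, 611 and 655 in controls. G93A arrays were all above the controls at 60 days and all below them at 120 days, with 1 control array inside the G93A range at 90 days. The differences were 0.84 ± 0.31, 0.71 ± 0.31 and -0.64 ± 0.31, and none passed (adjusted p = 0.234, 0.997 and 0.409). The test of genotype by age gave an adjusted p of 0.147.

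In controls Rab7 rose by 1.57 ± 0.31 from 60 to 120 days, 2.97-fold (adjusted p = 0.00402). That call held without any 1 array, and was lost with the Gapdh ratio as a covariate (adjusted p = 0.156). In G93A mice the same step was 0.09 ± 0.31 (adjusted p = 0.922). The gene's dimmer probe set, 1448159_at, differed by -1.76 in controls over these ages, and the mean of both was -0.09.

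Rab34, which places lysosomes near the Golgi and serves the cilium, passed the test over the 6 groups (adjusted p = 0.0331). Its signals were 158, 80.9 and 157 in G93A mice and 107, 82.7 and 63 in controls at 60 days, and 79.3, 71.2 and 56.3 in G93A mice and 82, 69.9 and 7 in controls at 90 days. At 120 days they were 272, 339 and 150.1 in G93A mice and 124, 217 and 263 in controls. The 120-day arrays were higher than most others in both genotypes, and the genotypes overlapped at every age. Its 6-group call was lost without G93A array 3 of 90 days, G93A array 1 or 2 of 120 days, or control array 2 or 3 of 120 days (0.0568 to 0.087). The mean of the gene's 2 probe sets did not pass either (adjusted p = 0.0713).

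Rab9, of transport from late endosomes to the Golgi, passed no test. Rab29, a partner of the kinase LRRK2, was lower at 120 than at 60 days in controls by -1.21 ± 0.39 without overlap (adjusted p = 0.0573). Rab38, of lysosome-related organelles, passed no test, and Rab7b and Rab32 were too dim to be tested.

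At the endoplasmic reticulum and Golgi, 11 members were measured and 1 changed in any comparison with a direction. Rab1a, which starts transport from the endoplasmic reticulum to the Golgi, followed the pattern of Rab14 and Rab7. Its signals were 698, 489.7 and 282 in G93A mice at 60 days, against 91.4, 242 and 232 in controls. The G93A arrays were higher without overlap, by 1.41 ± 0.41 (adjusted p = 0.114). At 90 days the signals were 814, 446 and 579.6 in G93A mice and 437, 762 and 355 in controls, and overlapped. At 120 days they were 168, 170.2 and 169.9 in G93A mice, against 509, 337 and 228 in controls. The 3 G93A arrays were almost equal and all below the controls, with a difference of -1.004 ± 0.41 (adjusted p = 0.318).

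None of these genotype differences of Rab1a passed, nor did its test of genotype by age (adjusted p = 0.0981). Within G93A mice the 120-day arrays lay below the 60-day ones by -1.44 ± 0.41 (adjusted p = 0.0651). Within controls the 90-day arrays lay above the 60-day ones by 1.51 ± 0.41 (adjusted p = 0.0597). Its second probe set gave differences of the same sign in these 3 comparisons: 0.73 for genotype at 60 days, -1.02 for age in G93A mice and 1.04 for 90 against 60 days in controls.

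Rab33b, a Golgi Rab that also binds the autophagy protein Atg16L1, was at 448, 182 and 148 in G93A mice at 60 days, against 80.9, 100.0 and 33.1 in controls. The separation was complete and amounted to 1.83 ± 0.47, which did not pass (adjusted p = 0.0706), while with quantile normalisation it did (adjusted p = 0.0337). Of 30 alternative settings 3 gave a call. Over all of them the difference ran from 0.98 to 2.15, with adjusted p up to 0.821 in limma. At 90 days the signals were 307, 288 and 261 in G93A mice and 169, 282 and 152 in controls, and at 120 days 140.0, 121 and 159.6 in G93A mice and 253, 137 and 84.6 in controls. Both later ages overlapped. The 6-group call was lost without control array 1 or 3 of 60 days, any G93A array of 90 days or G93A array 2 of 120 days (0.0511 to 0.144).

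Rab6b, the Golgi isoform found mainly in neurons, had the highest mean level among the members, as read by its own probe set. In controls it rose to 2632, 5459 and 3903 at 120 days, against 2107, 1777 and 1881 at 60 days. The difference was 1.00 ± 0.28, 2-fold (adjusted p = 0.0347). In G93A mice it was at 2947, 2313 and 2451 at 120 days and 1713, 2029 and 1856 at 60 days, also without overlap, a difference of 0.46 ± 0.28 (adjusted p = 0.437). At 90 days G93A arrays, at 1887, 1866 and 2085, lay below those of controls, at 2314, 2595 and 2132 (-0.27 ± 0.28, adjusted p = 0.997). The control call was lost without any control array of 60 days or control array 2 or 3 of 120 days (0.0545 to 0.139). With quantile normalisation the rise was 0.61 (adjusted p = 0.138), and with the Gapdh ratio as a covariate it was 0.99 (adjusted p = 0.196).

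Rab2b, of the same transport step as Rab1a and of autophagy, ranged from 498 to 1979 with a median of 902 over the 18 arrays. At 60 days it was at 498, 1343 and 746 in G93A mice and 1666, 911 and 1691 in controls, overlapping, with a difference of -0.79 ± 0.35 (adjusted p = 0.339). Rab6a, the ubiquitous Golgi isoform, ranged from 269 to 888 with a median of 503, and passed no test. Rab1b, the close relative of Rab1a, was at 60.7, 17 and 90.7 in G93A mice at 90 days, against 129, 127 and 181 in controls. It was lower in G93A mice without overlap, by -1.66 ± 0.67 (adjusted p = 0.997). Rab2a, Rab18, Rab30, Rab33a and Rab43 passed no test.

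**Figure D4:**
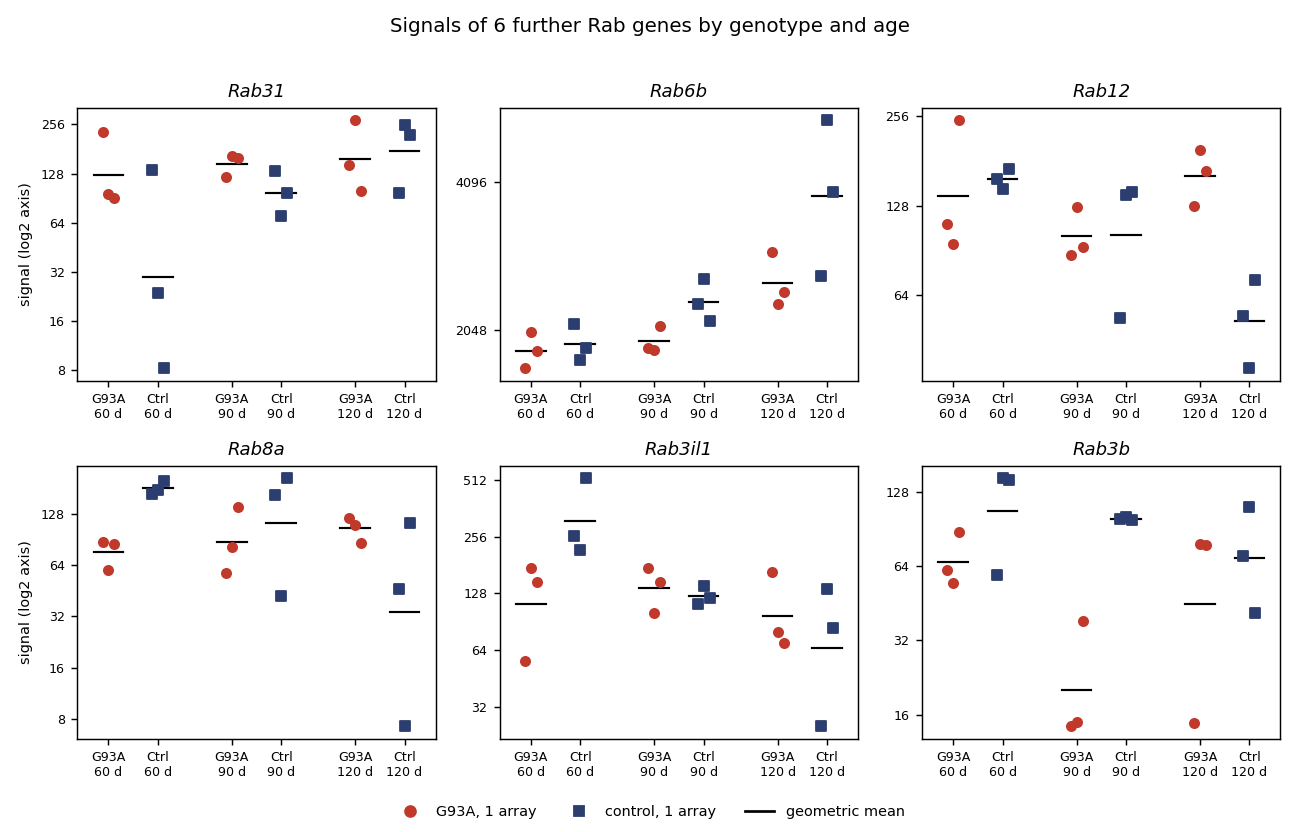
Signals (log2 axis, arbitrary units) of Rab31, Rab6b, Rab12, Rab8a, Rab3il1 and Rab3b on each of the 18 arrays, with G93A arrays as circles, control arrays as squares and the geometric mean of each group of 3 as a line. From 60 to 120 days controls rose in Rab31 and Rab6b and fell in Rab12, Rab8a and Rab3il1, and at 90 days the G93A arrays of Rab3b lie below the controls.

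None of the 7 members of regulated secretion changed in any comparison. Rab3a, the main Rab of synaptic vesicles, was at 75.3, 51.4 and 12.3 in G93A mice and 63.1, 19.8 and 82.6 in controls at 60 days. Its signals at 90 days were 126, 66.4 and 107 in G93A mice and 86.1, 44.2 and 11.9 in controls. At 120 days it was at 165, 174 and 99.6 in G93A mice and 126, 142 and 201 in controls. The genotypes overlapped at each age. The 120-day arrays lay above the 60-day arrays without overlap in G93A mice, by 1.97 ± 0.72 (adjusted p = 0.157), and in controls, by 1.71 ± 0.72 (adjusted p = 0.14).

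Rab3b, a vesicle Rab of selected neurons and endocrine cells, stood apart at 90 days. Its signals were 14.4, 15 and 38.5 in G93A mice, against 99.1, 101 and 98.2 in controls. The G93A arrays were lower by -2.30 ± 0.67, or 4.91-fold, and did not pass (adjusted p = 0.794). At 60 days Rab3b was at 61.4, 54.5 and 87.8 in G93A mice and 58.6, 145 and 142 in controls, and at 120 days at 14.8, 78.7 and 78 in G93A mice and 70.5, 111 and 41.4 in controls. Both overlapped. Within G93A mice the 90-day arrays were lower than the 60-day ones by -1.71 ± 0.67 (adjusted p = 0.832).

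Rab27a, which docks secretory granules and exosome-bearing endosomes, was at 25.1, 30.3 and 33.7 in G93A mice at 90 days, against 152, 64.7 and 107 in controls. G93A arrays lay lower, by -1.79 ± 0.67 (adjusted p = 0.997). At 60 days 0 of the 7 secretory members had a log2 difference above 0, with a median of -0.42 and a range of -1.10 to -0.02, and after centring on the median 1 of 7 did. At 90 days 3 of 7 lay above 0, with a median of -0.01, and 4 of 7 did after centring. At 120 days 1 of 7 did under both scalings, with a median of -0.39. Of all 56 members, 21 lay above 0 at 60 days, 29 at 90 days and 24 at 120 days before centring. All 7 secretory members belong to the 36 dimmer members, those not above the array median on every array. At 60 days these 36 had a median of -0.42 before centring, with 10 above 0. The 20 brighter members had a median of 0.24, with 11 above 0. The part of brightness in the secretory values was not tested. No p is attached to these counts, and the secretory members Rab3c, Rab3d, Rab27b and Rab37 passed no test.

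The 6 members with other roles include Rab40c, Rab12 and Rab24. Rab40c joins a ubiquitin ligase through a SOCS box. At 120 days it was at 574, 549.7 and 524 in G93A mice, against 249.6, 284 and 303 in controls. The 3 G93A arrays were the highest of all 18, and the difference of 0.98 ± 0.35 did not pass (adjusted p = 0.255). At 90 days the order was opposite, with 131, 74.3 and 145 in G93A mice and 225, 162 and 226 in controls, a difference of -0.85 ± 0.35 (adjusted p = 0.997). At 60 days the signals were 137, 264 and 179 in G93A mice and 264, 309.8 and 148 in controls, and overlapped.

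Within G93A mice Rab40c rose by 1.56 ± 0.35 from 60 to 120 days, 2.94-fold (adjusted p = 0.0249). In controls the step was 0.28 ± 0.35 (adjusted p = 0.662), and the test of genotype by age gave 0.14 as adjusted p. The rise was lost without G93A array 1 or 3 of 60 days or 1 or 2 of 120 days (0.0622 to 0.118), and with the hybridisation controls as a covariate (adjusted p = 0.291). The gene's dimmer probe set differed by -0.53 over these ages in G93A mice, and the mean of both by 0.51 (adjusted p = 0.643). The summed microglial markers were 11950 to 21190 in G93A mice at 120 days and 2674 to 3556 at 60 days, with 3 of 11 tested called higher and 0 lower. Most of the 120-day sum was Csf1r, at 13708, 9708 and 6872, and the list did not move as one. Cx3cr1, for example, was at 53.2, 61.3 and 62 in G93A mice at 120 days, against 242, 78.1 and 119 at 60 days. The part of microglial markers in the rise of Rab40c was not tested.

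Rab12, which sends recycling receptors on to lysosomes, fell in controls to 54.5, 36.3 and 72 at 120 days, against 157, 146 and 169.8 at 60 days. The difference was -1.59 ± 0.46 (adjusted p = 0.0386). At 120 days G93A arrays, at 128, 197 and 168, lay above those of controls by 1.63 ± 0.46 without overlap, and did not pass (adjusted p = 0.157). The fall in controls was lost without any control array of 60 days, G93A array 3 of 90 days or control array 1 or 2 of 120 days (0.0505 to 0.119), after centring (adjusted p = 0.146) and after quantile normalisation (adjusted p = 0.119).

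Rab24, known from autophagosomes, was at 6, 14.6 and 38 in G93A mice at 120 days, against 196, 59.3 and 39.2 in controls. The G93A arrays were all lower, by -2.37 ± 0.74 (adjusted p = 0.197). At 90 days they had been all higher, with 100.4, 89.1 and 53.5 in G93A mice and 29.2, 51.6 and 48.1 in controls (0.91 ± 0.74, adjusted p = 0.997). The second probe set of Rab24 differed by 0.03 at 120 days. Rab23, a regulator of hedgehog signalling, Rab28, of the cilium, and Rab40b passed no test.

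Among the 6 members that are no GTPase, Rab3il1 changed and Rab5if differed among the groups. Rab3il1, an exchange factor of Rab8 that also binds Rab3a, fell in controls to 25.3, 135 and 84.4 at 120 days, against 259, 217 and 524 at 60 days. The difference was -2.22 ± 0.55, 4.67-fold lower (adjusted p = 0.0174). Its 4 dimmer probe sets had differences of the same sign, from -2.27 to -0.83, but only 2 of them were tested and 0 were called. The mean of its probe sets differed by -1.60 (adjusted p = 0.183). At 60 days it was at 56.1, 175 and 148 in G93A mice, below the controls without overlap (-1.45 ± 0.55, adjusted p = 0.241). The fall in controls was lost without control array 3 of 60 days or control array 1 of 120 days (0.0881 to 0.103). It was also lost with the Gapdh ratio as a covariate (adjusted p = 0.194), with array weights (0.058) and without a trend in the moderation (0.0555).

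Rab5if, named as an interacting factor of Rab5, was at 357, 294 and 276 in G93A mice and 233, 178 and 235 in controls at 60 days, and at 814, 683 and 878 in G93A mice and 897, 628 and 223 in controls at 90 days. At 120 days it was at 229.5, 357 and 286 in G93A mice and 697, 224 and 466 in controls. In G93A mice the 90-day arrays were all above the 60-day arrays, by 1.36 ± 0.41 (adjusted p = 0.706). Its 6-group call was lost without any control array of 60 days, any G93A array of 90 days or G93A array 1 of 120 days (0.0508 to 0.103). Rab3gap2, a subunit of the complex that acts on Rab3 and Rab18, and Rab3ip, an exchange factor of Rab8, passed no test.

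The 6 members not tested were Rab20, Rab25, Rab32, Rab7b, Rab11fip5 and Rab26os, whose signals lay between 1.4 and 135.1. The spread between arrays of 1 group was wider in dim genes. Its pooled SD over the 6 groups ran from 0.25 on the log2 scale in Rab6b to 1.77 in Rab32, with a median of 0.46 in the 20 members above the array median on all 18 arrays and of 0.98 in the other 36.

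Proteins that switch and read Rabs, with other trafficking proteins such as Nbea, were described by a list of 147 gene symbols. Some of these are aliases of 1 gene, and 87 were on the array and 74 were tested. At 60 days 2 of 74 changed, both higher in G93A mice, as were nearly all of the 0.659% of tested genes that changed (0.629% higher). Tbc1d15, a GTPase activating protein of Rab7, was at 285, 269 and 148 in G93A mice, against 81.1, 6.9 and 59.1 in controls. The difference was 2.81 ± 0.61 (adjusted p = 0.026). Sytl2, an effector of Rab27, was at 261, 249 and 84.6 in G93A mice and 129, 9.8 and 13.9 in controls, 2.76 ± 0.66 (adjusted p = 0.0481). The arrays did not overlap in Tbc1d15, whereas control array 1 lay above G93A array 3 in Sytl2. In controls from 60 to 120 days, a comparison that uses the same 60-day arrays, Tbc1d15 rose by 2.47 ± 0.61 (adjusted p = 0.0174) and Sytl2 by 3.45 ± 0.66 (adjusted p = 0.00287). Whether the calls of single genes of this list hold under the alternative settings was not examined. Over the whole array, the 114 probe sets called for genotype at 60 days became 7 to 266 when 1 array was left out. They also fell with either technical covariate, as given below.

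Gdi2, a GDP dissociation inhibitor that extracts Rabs from membranes, was at 2577, 4836 and 3379 in G93A mice at 60 days, against 7741, 8761 and 6127 in controls, lower by -1.10 ± 0.34 (adjusted p = 0.137). Vps18, a subunit of the tethers that Rab5 and Rab7 recruit, was also lower without overlap (-2.00 ± 0.65, adjusted p = 0.158). At 90 and 120 days 0 of 74 changed with genotype, beside 0% and 0.0299% of all tested genes. At 90 days Bicd2, the dynein adaptor bound by Rab6, lay lower in G93A mice without overlap (-0.87 ± 0.44), as did the Rab5 effector Appl1 (-0.70 ± 0.37), while C9orf72, part of an exchange factor complex, lay higher (0.65 ± 0.43), each with adjusted p = 0.997. At 120 days Nbea, a neuronal trafficking protein, was lower in G93A mice by -1.72 ± 0.42 (adjusted p = 0.105), and Bicd2 was higher by 1.68 ± 0.44 (adjusted p = 0.127). Nbea passed the test of genotype by age (adjusted p = 0.0399), as 1 of 74, beside 0.399% of all tested genes.

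With age in controls, 5 of 74 list members (6.76%) changed from 60 to 120 days, 3 higher and 2 lower, a share near the 7.03% of all tested genes. Tbc1d14, which acts with Rab11 in autophagy, rose by 1.71 ± 0.36 (adjusted p = 0.00622) beside Tbc1d15 and Sytl2. Bicd2 fell by 1.74 (SE 0.44, adjusted p = 0.0197), and Rilpl1, a partner of phosphorylated Rab8 and Rab10, fell by 1.27 (SE 0.36, adjusted p = 0.0345). In G93A mice 2 of 74 (2.7%) changed over these ages, near the 2.26% of all tested genes, and both fell: Nbea by 1.92 (SE 0.42, adjusted p = 0.019) and Tbc1d19 by 1.87 (SE 0.44, adjusted p = 0.0301). From 60 to 90 days in controls Sytl2 rose by 2.64 ± 0.66 (adjusted p = 0.0403) and Vps39, a tether subunit at late endosomes, fell by 1.80 (SE 0.47, adjusted p = 0.0494), as 2 of 74, beside 1.51% of all tested genes. In G93A mice 0 of 74 changed over those ages, as did 0% of all tested genes. Over the 6 groups 8 of 74 (10.8%) differed, beside 9.52% of all tested genes. The median difference of the 87 genes from 60 to 120 days in controls was 0.00, where that of all genes was -0.31.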

How the data were processed

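Laser-captured motor neurons of 18 mice, 3 in each of 6 groups of genotype and age, were measured on 1-colour Affymetrix arrays, and the labels gave the groups. MAS5 made the deposited intensity values, which are linear, according to the submitters' processing notes; its version is not given in the sources used. A mean of about 100 was found on each array after trimming the top and bottom 2%. Detection calls were not used here, so no level is called absent.

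Signals under 1 (0.236% of values) were set to 1 and put on the log2 scale, with no further normalisation. Testing was limited to the 16565 probe sets that exceeded the array median on 3 or more of 18 arrays. Group means were fitted over all 18 arrays with limma 3.58.1 in R 4.3.3 (12 residual degrees of freedom, moderation with a trend), and p-values, two-sided, were adjusted by Benjamini-Hochberg over the 16565 probe sets in each comparison. The fit was tested on simulated data. Figures were drawn with matplotlib 3.10.9. The number of animals limits the precision, since arrays give no counting depth.

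Members, the list of regulators and effectors, the compartments and the cell type markers were chosen with earlier results of these data known. The text names members called in any comparison, members without overlap and the smallest p in each comparison (up to 4 by genotype, up to 3 by age), the 5 of highest level, and Rab1a, Rab3a, Rab5a, Rab7 and Rab11a. Alternatives covered scaling, pseudocount, filter, moderation, covariates, array weights, the replicate number as a block, the choice of probe set and each array left out. Gene symbols come from GEO's platform annotation, and promoter windows from RefSeq on GRCm38.p6, without the bases after the start.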

Additional observations from a re-analysis of the deposited data

Results flagged for a closer look

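In 5 of 56 members the genotypes separated without overlap in opposite directions at different ages, beside 3.98% of all genes on the array. No p is attached to that count, and nothing particular to the members is read from it. For Rab14 the G93A minus control difference was 1.73 at 60 days and -1.12 at 120 days, and the F test of genotype by age passed (adjusted p = 0.0213 in limma). For the other 4 the same test did not pass. Rab1a differed by 1.41 at 60 days and -1.004 at 120 days (adjusted p of genotype by age = 0.0981). Rab7 differed by 0.84 at 60 days and -0.64 at 120 days (adjusted p = 0.147). Rab40c differed by -0.85 at 90 days and 0.98 at 120 days (adjusted p = 0.14). Rab24 differed by 0.91 at 90 days and -2.37 at 120 days (adjusted p = 0.226). In Rab14, Rab1a and Rab7, the 60-day difference shares its control arrays, so these 3 genes are not independent views of it.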

How the results depend on the processing

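Counts are given for probe sets over the whole array and for the tested Rab genes, in limma at an adjusted p under 0.05. For genotype at 60 days, 114 probe sets and 1 Rab gene became 179 and 2 with quantile normalisation (Rab33b passed beside Rab14), 20 and 0 without a trend in the moderation, 1 and 0 with the hybridisation controls as a covariate, 10 and 0 with the Gapdh ratio, and 35 and 0 in a fit of the 6 arrays of that age. At 90 days, 0 probe sets became 1 without a trend. At 120 days, 4 probe sets became 23 with a pseudocount of 16, 1 each with quantile normalisation, centring, no trend and array weights, 0 with a filter of 9 arrays, 52 with the hybridisation controls, 8 with the Gapdh ratio and 0 in the 6 arrays of that age; 0 Rab genes passed under each. For the mean over ages, 2 became 11 with the pseudocount, 5 with quantile normalisation, 1 without a trend, 1 with the hybridisation controls and 0 with the Gapdh ratio. For genotype by age, 69 became 144 with the pseudocount, 238 after centring, 0 without a trend and 16 with the hybridisation controls, and the 1 Rab gene became 0 in the last 2. For any difference among the groups, 1482 probe sets and 10 Rab genes became 364 and 1 without a trend and 639 and 2 with the hybridisation controls, and 976 probe sets passed with the Gapdh ratio.

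For 90 against 60 days in G93A mice, 0 probe sets became 17 with array weights. For 120 against 60 days in G93A mice, 331 probe sets and 1 Rab gene became 198 probe sets after centring, 31 and 0 without a trend, 28 and 0 with the hybridisation controls, 208 and 3 with the Gapdh ratio, and 3 Rab genes with array weights. For 90 against 60 days in controls, 266 and 1 became 28 and 0 without a trend and 32 and 0 with the hybridisation controls, and the Rab genes became 2 with the pseudocount, with array weights and with the Gapdh ratio, and 3 with quantile normalisation. For 120 against 60 days in controls, 1112 and 7 became 549 and 2 without a trend, 143 and 1 with the Gapdh ratio, 667 probe sets with array weights, 1803 with the hybridisation controls, and 4 Rab genes with quantile normalisation. Read as the mean over a gene's probe sets, 0 Rab genes passed for genotype at 60 days, genotype by age, 120 against 60 days in G93A mice and 90 against 60 days in controls, 1 passed among the 6 groups and 2 with age to 120 days in controls. The same reading turned Rab40c at 90 days to 0.016 and Rab7 with age in controls to -0.094, since their dimmer probe sets differ in sign. Otherwise the cause of these shifts was not tested.

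Leaving out 1 array at a time gave 7 to 266 probe sets and 0 to 2 Rab genes for genotype at 60 days, 0 to 2 and 0 at 90 days, 0 to 141 and 0 at 120 days, and 0 to 16 and 0 for the mean over ages. It gave 16 to 253 and 0 to 2 for genotype by age, and 1033 to 1654 and 4 to 11 for any difference. For age it gave 0 and 0 at 90 days and 91 to 481 and 0 to 3 at 120 days in G93A mice, and 26 to 340 and 0 to 3 at 90 days and 534 to 1163 and 2 to 8 at 120 days in controls. The lowest count of Rab genes with age to 120 days in controls, 2, came without control array 3 of 60 days, and that among the 6 groups, 4, without G93A array 3 of 90 days.

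The sample labels number the animals 1 to 3 in each group. Deviations of same-numbered arrays correlated above 0.1 in 0 of 9 pairs of genotypes and 0 of 18 pairs of ages, between -0.12 and 0.07, so the numbers were not taken to pair animals. With the replicate number as a block, the probe sets at 120 days became 7 and those of the mean over ages 4. The block kept 1 Rab gene at 60 days (Rab14, adjusted p = 0.0158) and gave 5 with age to 120 days in controls, where Rab12 (0.0509) and Rab6b (0.0611) no longer passed. Array number and signal over background, not counting depth, limit what can be seen, and dim members carry the widest errors.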

Other observations

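Over the mean of the 3 ages, with 9 G93A and 9 control animals, no member passed in limma, and 10 had an unadjusted p under 0.05, 4 higher and 6 lower in G93A mice. The lower ones included Rab3b (-1.20 ± 0.38, adjusted p = 0.45), Rab22a, which sorts endosomal cargo (-1.10 ± 0.44, adjusted p = 0.564), and Rab27a (-0.87 ± 0.39, adjusted p = 0.623). The higher ones included Rab33b (0.78 ± 0.27, adjusted p = 0.51) and Rab8b, a Golgi-to-surface Rab (0.99 ± 0.44, adjusted p = 0.623). These 5 were named after their values were seen. Of all tested genes 8.08% had an unadjusted p under 0.05 in this comparison, beside 20% of the tested members.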
